A study of Mus with 7 samples.

Results

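The 10 antiviral effector genes Ifit1, Ifit2, Ifit3, Isg15, Isg20, Rsad2, Oasl1, Oasl2, Usp18 and Cmpk2 were followed in single macrophages treated with lipopolysaccharide (LPS) with or without docosahexaenoic acid (DHA). They were chosen by symbol, as interferon-induced antiviral effectors and their close partners, and all 10 were found among the 31053 genes of the count tables. The cells were fetal liver-derived macrophages (FLMs) of wild-type C57BL/6J mice, a self-renewing culture kept in 30 ng/mL GM-CSF. Con cells were taken from medium with 10% FBS before any treatment. For the others, FBS was cut to 0.25% for 24 h while 25 µM DHA carried by 8.3 µM BSA (DHA), or the same BSA without fatty acid (Veh), was present, and this medium was then exchanged for LPS at 20 ng/mL for 1 or 4 h or the cells were collected at 0 h. Each of the 7 conditions was 1 library, so differences could not be set against replicate spread, no test was made, and every interval is a 95% interval that covers counting error only. Groups are written as treatment, LPS and hours, so that DHA.LPS.4 is the DHA library after 4 h of LPS.

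Type I interferons act through their receptor, JAK kinases and the transcription factors they activate to switch on a large set of genes that limit viral growth. In macrophages LPS reaches this program through TLR4, the adaptor TRIF and IRF3, which induces interferon-beta, and the secreted interferon then acts on the same cell and its neighbours. IFIT proteins bind foreign RNA, ISG15 is a ubiquitin-like protein joined to other proteins, USP18 removes ISG15 and damps receptor signalling, and the OAS-like proteins are relatives of the OAS enzymes that sense double-stranded RNA.

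On the RefSeq annotation of GRCm38.p6, which is mm10, 7 of the 10 genes sit in 3 groups of close neighbours. Ifit2 (chr19:34550550-34576534), Ifit3 (chr19:34583119-34588982) and Ifit1 (chr19:34640889-34650009) lie along chromosome 19, with Ifit1bl2 and Ifit3b between Ifit3 and Ifit1. Rsad2 (chr12:26442743-26456452) and Cmpk2 (chr12:26469117-26479837) are 12664 bases apart on chromosome 12, with no annotated gene between them. Oasl2 (chr5:114896926-114912245) and Oasl1 (chr5:114923143-114937911) are 10897 bases apart on chromosome 5. Isg15 lies at chr4:156199424-156200818, Isg20 at chr7:78913396-78920396 and Usp18 at chr6:121245906-121270917. Ifit3b is a near-identical copy of Ifit3, so reads that fit both make the counts of these genes uncertain.

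Cells were kept with over 20000 UMIs (unique molecular identifiers, 1 for each captured RNA molecule), at least 2000 genes and under 20% of UMIs from mitochondrial genes. These limits left 692 to 3073 cells per library and 22045775 to 125716982 UMIs. They kept 40.6% to 55.6% of the barcodes in Veh libraries and 12.1% to 18.5% in DHA libraries, and at 4 h the median depth of the cells was 56239 UMIs in Veh and 29631 in DHA. UMIs were summed per gene and scaled by the library total to CPM, and shares of cells are given after each cell was thinned to 20000 UMIs, so that depth does not set them. All 11640 cells held at least 3 of 9 macrophage markers, and 16 cell barcodes were found in more than 1 library. No cell of any library held 3 markers of another cell type. Of the plasmacytoid dendritic cell markers, Siglech was at 0 or 1 UMI in each library and Klk1 at 0 in all 7, and the list's summed level, 1.87 to 50.9 CPM, came almost wholly from Cox6a2.

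With 4 h of LPS the summed level of the 10 genes went from 19.1 to 316 CPM in Veh cells and from 64.4 to 144 CPM in DHA cells. All 10 genes exceeded their Veh.LPS.0 level by more than 1.5-fold at 4 h in Veh, where 10.8% of the 11766 genes with at least 100 UMIs over the 7 libraries were higher by that much. At 4 h all 10 were lower with DHA by more than 1.5-fold, against a background of 5.53%. Before LPS and after 1 h the order was the opposite, with all 10 higher in DHA than in Veh by more than 1.5-fold, against backgrounds of 3.74% at 0 h and 4.25% at 1 h. No gene of the set was lower with DHA at these hours, when 3.49% and 4.41% of all genes were. The summed ratio of DHA to Veh was 3.36 (3.16 to 3.58) at 0 h, 3.96 (3.77 to 4.16) at 1 h and 0.455 (0.438 to 0.473) at 4 h. The sums are weighted to the abundant genes. At 4 h Oasl1 alone made up 151 CPM of the Veh sum and 93.6 of the DHA sum. All comparisons share libraries with others, and the change of direction between hours was not tested.

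**Figure D1:**
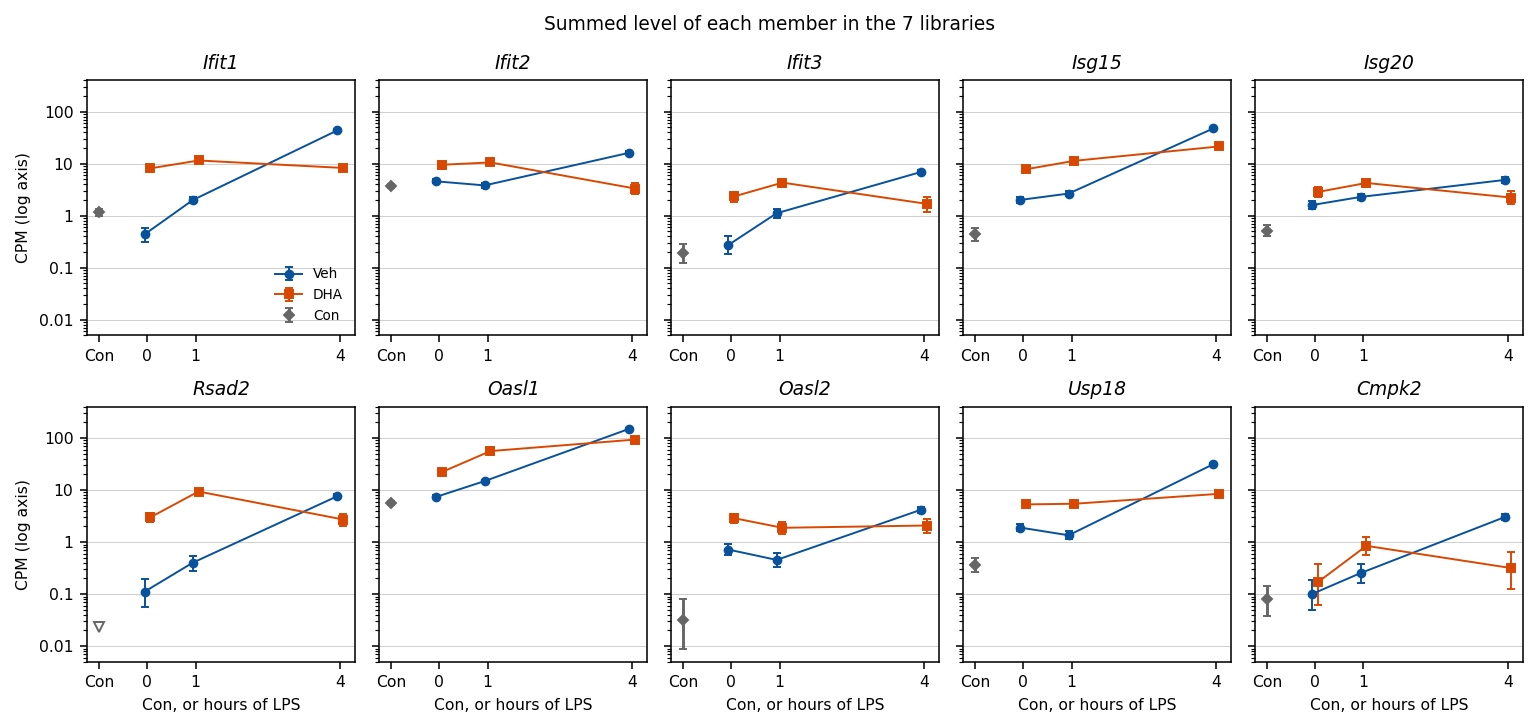
Level of each gene in CPM, on a log axis, in Con and at 0, 1 and 4 h of LPS in Veh (circles) and DHA (squares), with bars for the 95% counting interval of 1 library each. The open triangle marks Rsad2 in Con, where no UMI was found, at the 0.0239 CPM that 3 UMIs would give. In every panel DHA lies above Veh at 0 and 1 h and below it at 4 h.

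Ifit1, which binds the 5′ end of foreign RNA, was at 1.16 CPM in Con, in Veh at 0.435, 1.99 and 43.6 CPM (0, 1 and 4 h) and in DHA at 8.11, 11.5 and 8.26 CPM (likewise). Its Veh libraries spanned a 100.1-fold rise over 4 h (74.1 to 138.6), and its DHA libraries at 0 and 4 h did not differ beyond counting error, with a ratio of 1.02 (0.841 to 1.23). Without the 1% of cells with the most UMIs of the set these ratios were 568 in Veh and 2.25 in DHA. The ratio of 568 rests on few UMIs, since Veh.LPS.0 was then at 0.0512 CPM. At 4 h the DHA to Veh ratio was 0.189 (0.162 to 0.220). At that hour 15.8% of Veh cells had an Ifit1 UMI against 5.35% with DHA, and a positive cell held a mean of 6.12 and 3.41 thinned UMIs.

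Ifit2, which binds RNA rich in A and U, was at 3.67 CPM in Con, in Veh at 4.56, 3.81 and 16.2 CPM and in DHA at 9.51, 10.5 and 3.31 CPM, in the same order of hours. DHA.LPS.4 was the lowest of the 7 libraries, and its interval overlapped that of Con. Ifit2 was the only one of the 10 genes lower by more than 1.5-fold after 4 h of LPS in DHA cells, at 0.348 of its 0 h level (0.267 to 0.450). Such a fall was common there, with 38.5% of all genes lower by that much. The DHA to Veh ratio at 4 h was 0.205 (0.159 to 0.260).

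Ifit3 was at 0.191 CPM in Con, at 0.273, 1.11 and 6.93 CPM in Veh and at 2.34, 4.31 and 1.68 CPM in DHA. Veh.LPS.4 stood above the 6 other libraries, and DHA.LPS.4 overlapped both DHA.LPS.0 and Veh.LPS.1. The DHA to Veh ratio at 4 h was 0.242 (0.168 to 0.340), on 37 UMIs in DHA.LPS.4. Ifit3b rested on few UMIs and had 1.40 CPM at 4 h in Veh against 0.227 with DHA.

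Isg15 was at 0.437 CPM in Con, at 2.0, 2.65 and 47.4 CPM in Veh and at 7.79, 11.3 and 21.4 CPM in DHA. Its 7 libraries had no neighbours in order with overlapping intervals, and it kept rising in DHA cells, where 4 h of LPS gave 2.74 times the 0 h level (2.36 to 3.19) against 23.6 times in Veh (20.5 to 27.4). At 4 h a UMI was seen in 36.7% of Veh cells and 19.2% of DHA cells, and a positive cell held 2.47 and 2.38 thinned UMIs.

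Usp18 was at 0.366 CPM in Con, at 1.90, 1.35 and 31.5 CPM in Veh and at 5.31, 5.47 and 8.48 CPM in DHA. The 4 h DHA to Veh ratio of 0.269 (0.230 to 0.313) was below that of Isg15, 0.451 (0.408 to 0.497), and the intervals did not overlap. The share of Usp18-positive cells was 31.1% in Veh.LPS.4 and 8.38% in DHA.LPS.4, with 2.11 and 2.16 thinned UMIs per positive cell. For Isg15 and Usp18 the libraries thus differed in the share of positive cells, while the mean UMIs of a positive cell were close.

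Isg20, an exonuclease that degrades single-stranded RNA, was at 0.517 CPM in Con, at 1.6, 2.28 and 4.86 CPM in Veh and at 2.85, 4.24 and 2.22 CPM in DHA. Its rise in Veh over 4 h was 3.04 times (2.49 to 3.72), and Veh.LPS.4 overlapped DHA.LPS.1. The 4 h DHA to Veh ratio was 0.457 (0.330 to 0.621).

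Rsad2 encodes viperin, which makes a chain-terminating nucleotide, and its neighbour Cmpk2 encodes a mitochondrial nucleotide kinase. Rsad2 had no UMI in Con, with an interval up to 0.0293 CPM. It was at 0.111, 0.402 and 7.65 CPM in Veh and at 3.0, 9.40 and 2.72 CPM in DHA. DHA.LPS.1 was the highest library and overlapped Veh.LPS.4. The Rsad2 sums came from few cells. In DHA.LPS.4 all UMIs were in 1.16% of the cells, and 46.7% of them were in a single cell. The 4 h DHA to Veh ratio was 0.356 (0.267 to 0.467) over all cells and 0.0710 without the 1% of cells with the most UMIs of the set. With cells of over 10000 UMIs admitted it was 1.13, and 1 of the 113 cells this added to DHA.LPS.4 held 103 Rsad2 UMIs. Without that cell the ratio was 0.559, so the direction for Rsad2 at 4 h turned on 1 cell. Cmpk2 was at 0.0795 CPM in Con, at 0.101, 0.254 and 3.05 CPM in Veh and at 0.171, 0.849 and 0.318 CPM in DHA, the last on 7 UMIs. Its 4 h DHA to Veh ratio of 0.104 (0.0412 to 0.219) rests on that count, and its 0 h ratio of 1.69 has an interval, 0.505 to 5.14, that spans no difference.

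Oasl1, known for holding back translation of Irf7 mRNA, was at 5.65 CPM in Con, at 7.44, 14.9 and 151 CPM in Veh and at 22.4, 56.3 and 93.6 CPM in DHA. Of the 10 genes it had the 4 h DHA to Veh ratio nearest to 1, at 0.620 (0.591 to 0.650), and in DHA cells it rose by 4.18 times over 4 h (3.85 to 4.54). At 4 h it was seen in 66.5% of Veh cells and 43.9% of DHA cells, against 6.12% of Con cells at the same thinned depth. Oasl2 was at 0.0318 CPM in Con, at 0.719, 0.455 and 4.22 CPM in Veh and at 2.88, 1.89 and 2.09 CPM in DHA. Its 3 DHA libraries overlapped with their neighbours in order, and its 4 h DHA to Veh ratio was 0.495 (0.353 to 0.680).

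LPS for 1 h in Veh cells raised 5 of the 10 genes by more than 1.5-fold, namely Ifit1, Ifit3, Rsad2, Oasl1 and Cmpk2, and Oasl2 was lower by more than that, with 6.66% of all genes higher and 10.5% lower. Without the 1% of cells with the most UMIs of the set, the count was 3 higher and 5 lower. In DHA cells 4 genes were higher at 1 h (Ifit3, Rsad2, Oasl1 and Cmpk2) and 1 lower (Oasl2), with 7.56% of all genes higher and 11.1% lower, and TMM factors, a scaling to the bulk of the genes in place of the total, which shift every log2 ratio of that comparison by 0.11, made this 7 higher. After 4 h in DHA cells Isg15, Oasl1, Usp18 and Cmpk2 were higher and Ifit2 lower, with 11.4% of all genes higher and 38.5% lower, and without the top 1% of cells 7 were higher and 1 lower. Over all cells Cmpk2 rested on 7 against 6 UMIs, and the interval of its ratio of 1.85, 0.533 to 6.68, spans no difference. Without the top 1% of cells it was among the 7 with under 3 UMIs in each library. Both were set to 3, so its ratio there is only that of the library totals. Rsad2, also among the 7, had the same ratio of 1.59 on few UMIs, at 0.274 CPM in DHA.LPS.4 and 0.173 in DHA.LPS.0. The median log2 ratio of the set over 4 h of LPS was 4.45 in Veh and -0.06 in DHA, where all genes had medians of -0.46 and -0.34, and TMM factors shift both comparisons upward, by 0.43 and 0.30. Without the top 1% of cells the medians of the set were 4.76 and 0.88, so the sign in DHA turned with those cells. The summed level rose by 2.24 times in DHA cells (2.12 to 2.36), from 64.4 to 144 CPM. Most of this rise came from Oasl1, which went from 22.4 to 93.6 CPM. Veh.LPS.0 and Con differ in serum, in BSA and in 24 h of culture, and the parts of these cannot be told apart. Against Con, Veh.LPS.0 had 5 of the 10 genes higher by more than 1.5-fold (Isg15, Isg20, Rsad2, Oasl2 and Usp18) and Ifit1 lower. Of all genes, 16.5% were higher and 7.71% lower by that much. Without the top 1% of cells 7 of the 10 were higher and none lower, with Ifit1 at 0.797 of Con in place of 0.375. In Con 29.5% of the Ifit1 UMIs had come from a single cell. Rsad2 had no UMI in Con, and its log2 ratio of 2.22 takes 3 UMIs for that library. The interval of its ratio began at 3.19. It rested on 11 UMIs in Veh.LPS.0, 54.5% of them in a single cell. Without the top 1% of cells Rsad2 was not among the 7, at a ratio of 1.27.

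**Figure D2:**
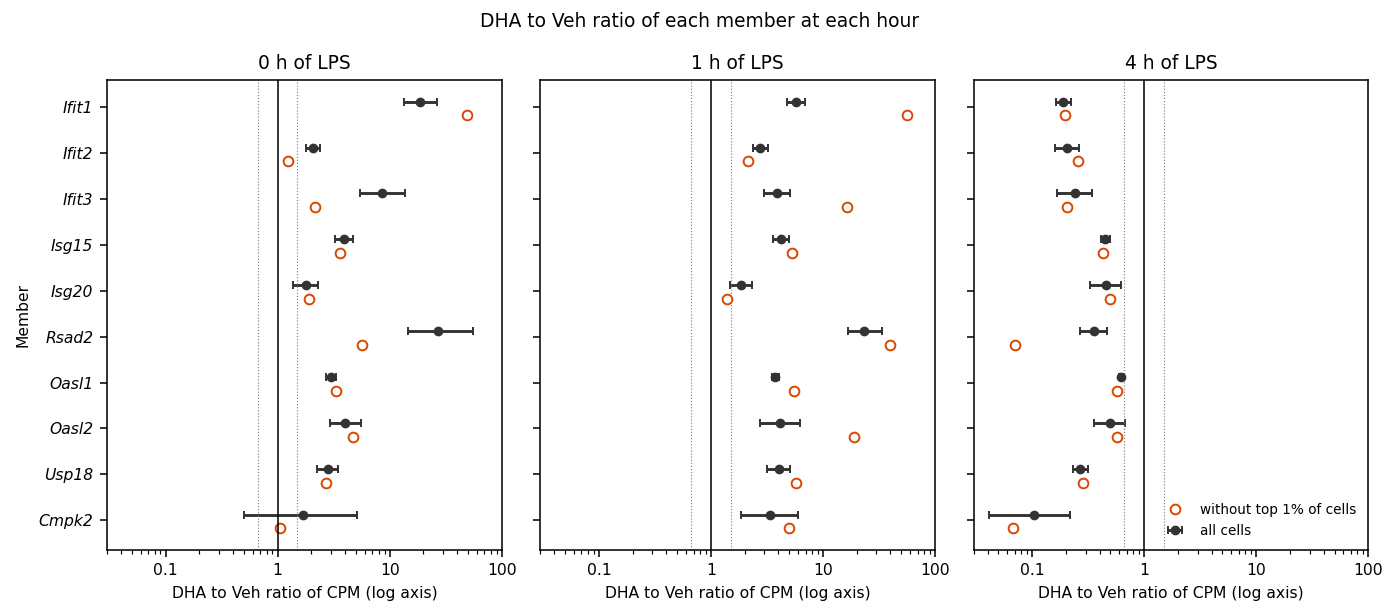
DHA to Veh ratio of CPM for each gene at 0, 1 and 4 h, on a log axis, over all cells (filled, with the 95% counting interval) and without the 1% of cells of each library with the most UMIs of the set (open). Dotted lines mark 1.5-fold either way. Open points take 3 UMIs where fewer were left. These are Rsad2 in Veh at 0 and 1 h and Cmpk2 in DHA at 0 and 4 h. At 4 h all filled and open points lie to the left of 1. At 0 and 1 h all are drawn to the right, but the open point of Cmpk2 at 0 h only through its 3 UMIs. Its level without the top cells was 0.0288 CPM in DHA and 0.0820 in Veh.

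The DHA to Veh ratios before LPS were highest for Rsad2, 26.9 (14.4 to 55.6), Ifit1, 18.6 (13.5 to 26.3), and Ifit3, 8.56 (5.48 to 13.8). The 7 other genes had ratios from 1.69 for Cmpk2 to 4.01 for Oasl2. At 1 h Rsad2 was again highest at 23.4 (16.6 to 33.7) and Isg20 lowest at 1.86 (1.49 to 2.31). Without the top 1% of cells, 8 genes were higher by more than 1.5-fold at 0 h, and 9 at 1 h, the exception there being Isg20 at 1.38. The exceptions at 0 h were Ifit2 at 1.25 and Cmpk2. Cmpk2 was then at 0.0288 CPM in DHA against 0.0820 in Veh, and its ratio of 1.05 takes 3 UMIs for DHA, which had fewer. Without those cells Ifit1 had ratios of 49.5 at 0 h and 56.4 at 1 h, and at 0 h Ifit3 had 2.15. These Ifit1 ratios rest on few UMIs, since its Veh levels were then 0.0512 and 0.0856 CPM. The median log2 ratio of DHA to Veh was 1.77 at 0 h, 1.98 at 1 h and -1.69 at 4 h, where all genes had medians of -0.04, -0.05 and 0.09.

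The barcodes that the limits left out were read as well, and they come from the same libraries. Most were at 20% mitochondrial UMIs or more. Of all barcodes, 37.8%, 35.8% and 54.7% had that share in Veh at 0, 1 and 4 h. In DHA 76.4%, 74.4% and 80.0% did. The summed level in the barcodes left out was 11.8 CPM in Veh and 21.5 in DHA at 0 h. It was 18.9 and 34.1 at 1 h, and 213 and 80.5 at 4 h. The order of the sums is that of the kept cells at each hour, but at 1 h not every gene followed it. In the barcodes left out at 1 h, Ifit2 was at 2.93 CPM in Veh and 1.93 in DHA, Isg20 at 1.69 and 1.26, and Ifit3 at 1.09 and 0.998. Cmpk2 had no UMI there in either. At 0 h Isg20 hardly differed in the barcodes left out, at 0.526 CPM in Veh and 0.529 in DHA. Ifit2 (2.30 and 3.04), Ifit3, Isg15, Oasl1 and Oasl2 were higher there in DHA, but by less than 1.5-fold. Cox6a2, from the plasmacytoid list above, also differed with DHA, at 22.5 CPM in Veh.LPS.0 and 49.0 in DHA.LPS.0. It was at 1.85 CPM in Con. Without thinning it was found in 32.8% of Veh.LPS.0 and 50.3% of DHA.LPS.0 cells, whose median depths were 36897 and 46928 UMIs. In DHA.LPS.0 cells with at least 3 of the 10 genes it was at 89.6 CPM, against 47.1 in the other cells, and in DHA.LPS.1 at 134 against 47.1. In Veh it was not higher in such cells before 4 h, at 20.1 against 22.5 CPM at 0 h and 9.75 against 21.0 at 1 h. At 4 h it was at 18.2 against 15.7 in Veh and 57.4 against 32.6 in DHA. The rest of the list was not higher in such cells in any library. Siglech, Ly6d and Klk1 had no UMI in any DHA library. Ccr9 was higher in DHA than in Veh at each hour, on few UMIs. At 4 h it was at 1.54 CPM in DHA (34 UMIs) and 0.341 in Veh (20 UMIs). In DHA.LPS.4 cells with at least 3 of the 10 genes Ccr9 was at 0.585 CPM, against 1.62 in the other cells. The part of Cox6a2, of depth and of the lower share of barcodes kept in DHA libraries in these differences was not tested.

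The high levels before LPS and at 1 h lay in few cells. The 1% of cells with the most UMIs of the set held 46.5% of its UMIs in Con, 30.0% and 50.9% in Veh at 0 and 1 h, and 42.9% and 39.4% in DHA. At 4 h they held 14.3% in Veh and 15.9% in DHA. The highest cell of DHA.LPS.0 held 272 UMIs of the set, from all 10 genes, and that of DHA.LPS.1 held 291 from 9 of them. The highest Con cell held 141 UMIs from 6 of the genes. UMIs in a single cell are not independent, so the counting intervals above are too narrow where few cells hold most of a sum.

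**Figure D3:**
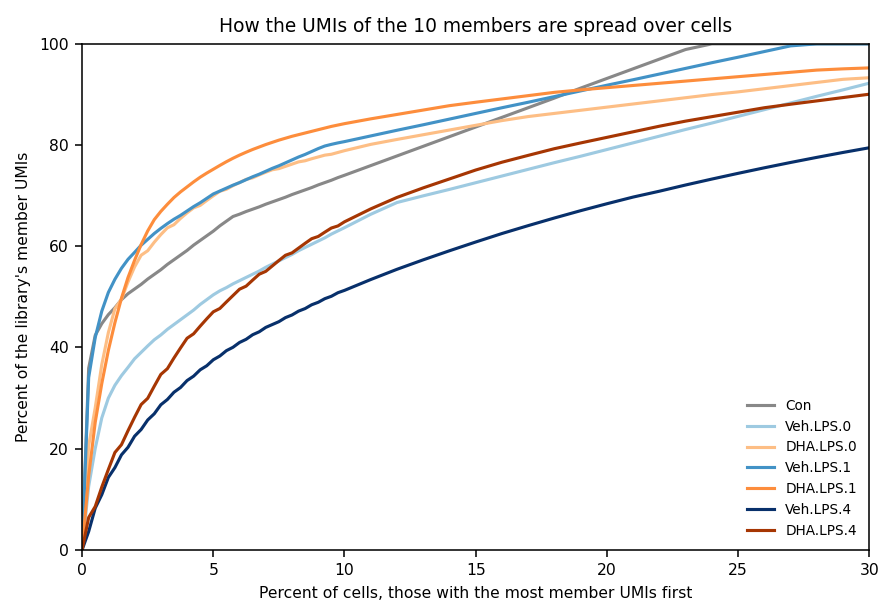
Share of a library's UMIs from the 10 genes (vertical axis, percent) held by its highest cells (horizontal axis, percent of cells ranked from the most UMIs of the set, shown to 30%), 1 line per library. The lines of Veh.LPS.4 and DHA.LPS.4 rise most slowly at the left edge, and at 1% of cells they stand at 14.3% and 15.9%, below the 30.0% to 50.9% of the 5 other libraries.

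The number of the 10 genes found in each thinned cell also differed between libraries. At least 1 was found in 13.1% of Con cells, in 21.7%, 20.7% and 78.4% of Veh cells at 0, 1 and 4 h, and in 32.2%, 38.2% and 53.5% of DHA cells. At least 3 were found in 0.241% of Con cells (0.0968 to 0.495), and in Veh in 1.57% (1.12 to 2.14), 0.748% (0.475 to 1.12) and 26.7% (24.0 to 29.6). In DHA the shares were 4.44% (3.04 to 6.25), 4.65% (3.30 to 6.36) and 7.95% (6.04 to 10.2). At each hour the intervals of DHA and Veh did not overlap. Cells with at least 7 of the genes numbered 33 at 4 h in Veh (3.32%) and 8 with DHA (1.16%). Without thinning, the share with at least 3 was 46.0% in Veh.LPS.4 and 10.4% in DHA.LPS.4. No cell type lacking these genes was present to measure free RNA in the droplets, and the Con shares are the lowest level seen.

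**Figure D4:**
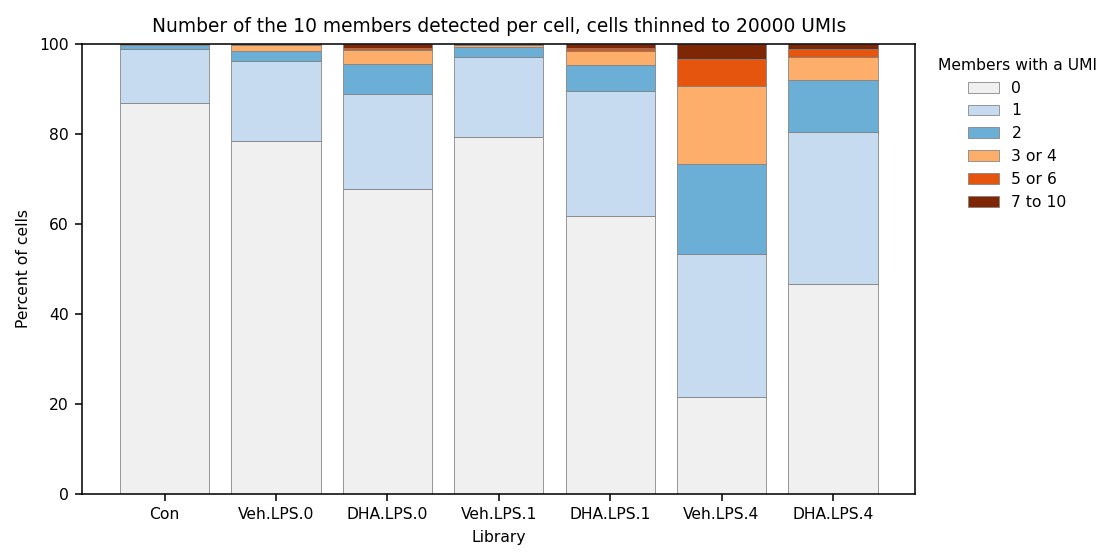
Percent of cells (vertical axis) in each library with 0, 1, 2, 3 or 4, 5 or 6, and 7 to 10 of the genes detected, after thinning each cell to 20000 UMIs. Cells with 3 or more genes, the 3 segments at the top of each bar, make up 26.7% of Veh.LPS.4 and 7.95% of DHA.LPS.4, and under 5% of every other library.

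Much of the 4 h difference remained when the most widely detected gene, Oasl1, was set aside. At least 3 of the 9 other genes were seen in 16.2% of the Veh.LPS.4 cells (14.0 to 18.7) and in 4.48% with DHA (3.06 to 6.30). At 4 h Oasl1, also the gene found in the most cells, was the one most often found on its own. Of the Oasl1-positive cells, 33.6% in Veh.LPS.4 and 56.9% in DHA.LPS.4 held no other gene of the set. Over all cells, any of the 9 others was seen in only 56.1% and 28.5%. Oasl1-positive cells held more of the others than Oasl1-negative cells, a mean of 1.61 against 0.474 in Veh.LPS.4 and 0.852 against 0.191 in DHA.LPS.4. Even of cells with at least 10 thinned Oasl1 UMIs, 11 of 81 in Veh.LPS.4 and 8 of 33 in DHA.LPS.4 held none of the others. Rsad2 and Ifit3 were found in far fewer Veh.LPS.4 cells. None of their 25 and 70 positive cells held that gene alone, and 88.0% and 94.3% of them held at least 3 others.

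**Figure D5:**
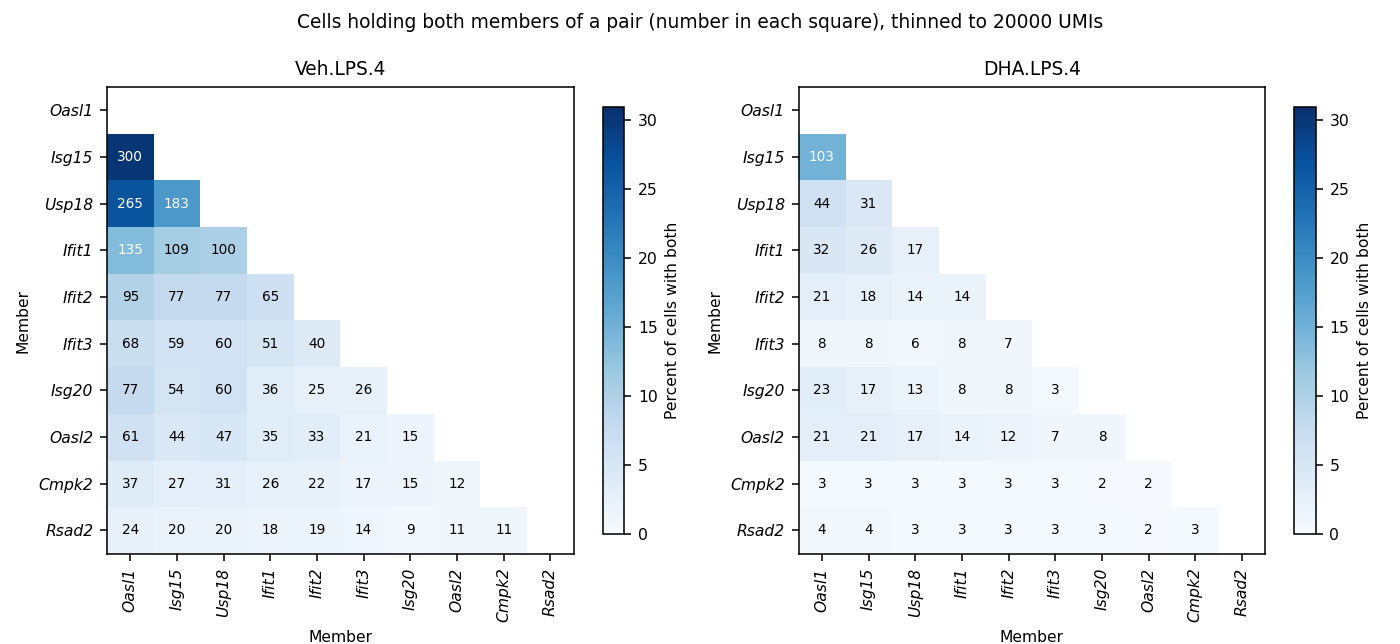
Cells holding both genes of a pair in Veh.LPS.4 (993 cells) and DHA.LPS.4 (692 cells), thinned to 20000 UMIs. Colour gives the percent of cells, the number in each square the cells, and each pair is drawn once below the diagonal. Oasl1 with Isg15 is the most frequent pair in both, in 300 and 103 cells.

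All 45 pairs of genes were found in the same cell more often than the product of their shares in both 4 h libraries, with a median of 2.57 times that product in Veh.LPS.4 and 5.97 times in DHA.LPS.4. In DHA.LPS.4 only 13 pairs had a product of 3 cells or more, with a median of 1.99 times, and in Veh.LPS.4 there were 38, with a median of 2.31 times. In Veh.LPS.4 the neighbours Rsad2 and Cmpk2 had the highest ratio, 10.9 times, with both genes in 11 cells. Of the Ifit3-positive cells there, 72.9% held Ifit1, 85.7% Usp18 and 97.1% Oasl1. Over Veh.LPS.4 cells the highest Spearman correlations among the pairs were those of Ifit1 with Ifit2 (rho 0.49), Ifit1 with Ifit3 (0.46) and Ifit2 with Ifit3 (0.44), over 993 cells that share a library and thinned depth.

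Veh.LPS.4 had 94 cells with at least 5 of the genes and DHA.LPS.4 had 20. Their median depth was close to that of the other cells, 55316 against 56426 UMIs in Veh.LPS.4 and 29002 against 29704 in DHA.LPS.4, and no doublet caller was run. Tnf, an NF-kB target, was at 2091 CPM in the 94 cells and 2307 in the rest, and Il1b at 768 and 794. Cxcl10, an interferon-induced chemokine, was at 322 and 36.0 CPM. In DHA.LPS.1 the 13 such cells had no Il1b UMI, but the rest were at only 3.13 CPM. Plin2, which coats lipid droplets, was at 1479 CPM in the 13 cells against 515 in the rest. It was higher in cells with at least 5 of the genes in every other library too, as in Veh.LPS.1 at 155 against 69.8 CPM. The median mitochondrial share of such cells was 3.96% against 7.24% in DHA.LPS.1 and 3.30% against 7.50% in DHA.LPS.0. In DHA.LPS.4 it was 6.51% against 6.61%, and in Con 7.10% against 7.53%. In each Veh library it was higher than in the rest. Such cells were few, 3 in Con, 9 in DHA.LPS.0, 8 in Veh.LPS.0 and 11 in Veh.LPS.1.

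Of the genes upstream, Ifnb1, which encodes interferon-beta, was at 0 to 0.0856 CPM in the libraries before 4 h. At 4 h Veh cells had 3.36 CPM (197 UMIs in 21 cells) and DHA cells 0.499 CPM (11 UMIs in 5 cells). At least 3 of the 10 genes were found in 19 of the 21 Ifnb1-positive cells in Veh.LPS.4, against 25.3% of the other cells, and in 3 of the 5 in DHA.LPS.4, against 7.57%. Ifna2 and Ifna4 had no UMI in any library. The receptor genes Ifnar1 and Ifnar2 and the kinase genes Jak1 and Tyk2 were not lower with DHA at any hour by more than 1.5-fold, and their log2 ratios at 4 h were 0.30, 0.28, 0.29 and 0.20.

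Among the transcription factors of the pathway, Irf7, Stat2, Irf9 and Irf1 were lower with DHA at 4 h by more than 1.5-fold, with log2 ratios of -1.53, -1.44, -0.89 and -0.84. Irf3, which is activated without new transcription, had 0.22. At 1 h Irf7 (1.49), Irf1 (0.84) and Irf9 (0.60) were higher with DHA by that much, and at 0 h Irf7 was (1.05). Irf1 was at 4.27, 14.2 and 10.5 CPM in Veh and at 4.31, 25.3 and 5.85 in DHA at 0, 1 and 4 h, so that it too changed places between 1 and 4 h.

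The ISG15 pathway enzymes were read beside Isg15 and Usp18. Herc6, the ligase, had a log2 DHA to Veh ratio of -1.46 at 4 h, Uba7, the activating enzyme, -0.77, and Ube2l6, the conjugating enzyme, -0.28. In Veh cells 4 h of LPS gave Herc6 a log2 ratio of 1.73, while Uba7 had -0.33 and Ube2l6 -0.73, on either side of the median of all genes, -0.46, and Isg15 had 4.56 and Usp18 4.05.

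The paralogs measured, Ifit3b, Ifit1bl1, Ifit1bl2, Oas1a, Oas1c, Oas1g, Oas2 and Oas3, were all 8 lower with DHA at 4 h by over 1.5-fold, and their median log2 ratio was -1.01. Ifit1bl1 and Ifit1bl2 had no UMI in DHA.LPS.4, and their ratios were taken against 3 UMIs. At 0 h only Ifit3b of the 6 that could be compared was higher by that much, and on only 3 UMIs in DHA against 4 in Veh. The Oas genes had log2 ratios at 0 h from -0.10 for Oas1g to 0.36 for Oas3. The log2 ratios over 4 h of LPS in Veh were 0.65 for Oas1a, 0.39 for Oas1g, 0.30 for Oas3, 2.32 for Oas2 and -1.72 for Oas1c, beside 4.34 for Oasl1 and 2.55 for Oasl2. Reads that fit several of the similar Oas1 genes make their counts uncertain.

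Of 19 other interferon-induced genes, 15 were lower with DHA at 4 h by over 1.5-fold and none higher, and the median log2 ratio was -1.10. At 0 h 9 were higher and none lower, and at 1 h 12 were higher and none lower. Of 8 NF-kB targets, Il1b was lower with DHA by over 1.5-fold at 1 and 4 h and Cxcl2 higher at 0 h, with no other past that limit and medians of -0.17 at 4 h, -0.06 at 0 h and -0.14 at 1 h. The NF-kB targets had already risen at 1 h in Veh, 7 of 8 by more than 1.5-fold, when 5 of the 10 antiviral genes had.

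The genes outside the set whose level over the 7 libraries was most like its mean log2(CPM + 1) were Ifi214, Gbp5, Rtp4, Slfn4, Gbp3, 1700006J14Rik, Ddit4, Slfn5, Oas2 and Serpinb9, with Pearson r from 0.94 to 0.97 over the 7 libraries. Rtp4, for example, was at 2.25, 1.18 and 24.9 CPM in Veh and at 6.25, 6.03 and 7.53 in DHA. Within the set, r of each gene with the mean of the 9 others ran from 0.77 for Ifit2 to 0.97 for Ifit1. Over the 993 Veh.LPS.4 cells, the genes with the highest Spearman correlation with the summed UMIs of the set were Ifi207, Ifi202b, Parp14, Ifi203, Mndal, Slfn5, Eif2ak2, Ddx58, Phf11d and Irgm1, with rho from 0.38 to 0.49. Among these, Ifi207, Ifi202b, Ifi203 and Mndal belong to the p200 family of DNA-binding proteins. In the same cells Tnf had rho 0.04, Nfkbia 0.03 and Il1b 0.03 with the set, and Irf7 had 0.36.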

How the data were processed

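Single-cell 3′ RNA sequencing (10x Chromium, v3 chemistry) was done on 7 libraries, 1 per condition. The authors deposited raw UMI counts per gene and barcode, made with Cell Ranger 3.1.0 on mm10 per the labels and the file headers, while the study's methods name another version. The matrices hold only barcodes called as cells, and no later filter or normalization had been applied. Here barcodes with over 20000 UMIs, at least 2000 genes and under 20% mt- UMIs, the limits of the methods, were kept, and their UMIs were summed per gene and scaled to CPM. Exact Poisson intervals were used for CPM, exact conditional binomial intervals for ratios and exact (Clopper-Pearson) binomial intervals for shares, all at 95%. Cells are not replicates, so genes were counted by size (1.5-fold) with no test. UMI counts below 3, also those of 0, were set to 3 for the fold limit and for ratios without the top cells. The steps were tested on simulated independent counts, which lack the crowding of UMIs into few cells seen here.

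The 10 genes and all gene lists were chosen with earlier results of these data known. Other genes were named by the lists and by likeness: the 10 genes with the highest Pearson correlation with the set over libraries, and the 10 with the highest Spearman correlation over Veh.LPS.4 cells among genes found in at least 10% of them. Alternatives were TMM factors (edgeR 4.0.16), SCTransform (sctransform 0.4.2), other limits on cells, mean CPM per cell and a 2-fold limit. Leaving out the top 1% of cells, and the counts of genes higher with DHA and after LPS in DHA were added after seeing the data. Cox6a2, Ccr9, Ly6d, Plin2, Cxcl10, Tnf, Il1b and Cxcl2 were named after their values were seen. Analyses used Python 3.11.15, numpy 2.4.6, scipy 1.17.1 and R 4.3.3. Mx2 and Oas1b of the lists, and a planned motif search of promoters, were not analysed here, and a further gene of the lists is not reported here.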

Additional observations from a re-analysis of the deposited data

Results flagged for a closer look

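Each of the 10 genes was higher with DHA after 1 h of LPS and lower with DHA after 4 h, by more than 1.5-fold at both hours. The log2 DHA to Veh ratio at 4 h minus that at 1 h was -4.93 for Ifit1, -3.75 for Ifit2 and -4.00 for Ifit3. It was -3.24 for Isg15, -3.91 for Usp18 and -2.02 for Isg20. It was -6.04 for Rsad2, -5.01 for Cmpk2, -2.61 for Oasl1 and -3.07 for Oasl2. For the 10 genes summed, the ratio at 4 h minus that at 0 h was -2.88 on the log2 scale. With 1 library per condition these differences were not tested.

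The genes were also found in barcodes left out by the limits on cells. At 4 h their summed level there was 213 CPM with Veh and 80.5 with DHA, above the 11.8 CPM of the barcodes left out of Veh.LPS.0.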

How the results depend on the processing

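With 1 library per condition, the limits are the counting error, the few cells that hold most UMIs before 4 h, and the share of barcodes kept, which was lower in DHA libraries. No paired analysis was possible because each condition had 1 library. The counts of genes lower with DHA and higher with LPS at 4 h, and those for DHA at 0 and 1 h, stayed within 1.5 times under every alternative run, with 8 to 10 of 10 genes lower with DHA at 4 h. The count higher after 1 h of LPS in Veh was 5 and fell to 3 without the top 1% of cells. In DHA the count was 4 at both hours. TMM factors made it 7 at 1 h, and at 4 h it was 7 without the top 1% of cells and 2 with the 2-fold limit. Among the 7 at 4 h, Cmpk2 had under 3 UMIs in each library, and Rsad2 rested on few.

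The summed DHA to Veh ratio at 4 h was 0.418 with TMM factors, 0.359 over all barcodes, 0.535 with over 10000 UMIs per cell and 0.347 with SCTransform. At 0 h it was 2.45 over all barcodes, 3.93 under 10% mt- UMIs, 3.73 as a mean of each cell's CPM, 4.05 with SCTransform and 2.73 without the top 1% of cells. At 1 h it was 2.78 over all barcodes, 4.35 as a mean of each cell's CPM, 4.87 with SCTransform and 4.88 without the top 1% of cells. The share of cells with at least 3 genes in Veh.LPS.4 was 16.9% thinned to 10000 UMIs, 46.0% without thinning and 16.1% with over 10000 UMIs per cell thinned to 10000. In DHA.LPS.4 these shares were 4.19%, 10.4% and 5.96%. Of the 70 values of single genes at 4 h under an alternative, 48 stayed within their counting interval, 21 moved and kept their direction, and Rsad2 turned to 1.13 with over 10000 UMIs per cell, where 1 cell held 103 of its UMIs and the ratio without that cell was 0.559. For the other changes the cause was not tested.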
